A study of Mus musculus with 6 samples.

Results

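Potassium channel genes were taken as every gene whose symbol starts with Kcn, and 96 such genes were measured by 130 probes, out of 19897 named genes and 26300 named probes. The RNA came from sorted spinal cord cells of mouse embryos at E12.5, read on 6 one-colour Agilent arrays. All embryos carried Hb9::GFP, a reporter under the promoter of the motor neuron gene Mnx1 (Hb9). GFP-on cells were sorted as the motor neuron fraction and GFP-off cells as the remaining cells. Signals of other cell types in both fractions are given below. The groups were GFP-on cells of mir-17~92 -/- ; Hb9::GFP embryos (2 arrays), GFP-on cells of WT ; Hb9::GFP embryos (2 arrays), and GFP-off cells of each of these genotypes (1 array each). The labels give no sex, do not state whether embryos were pooled, and do not state whether the 2 arrays of a group came from separate embryos. The p-values below therefore measure the spread between arrays, which may be technical. The files carry RefSeq accessions in place of gene symbols for many probes, and a probe was named where its accession matched (26300 of 55681 probes). Of 98 Kcn symbols in the RefSeq table, 2 had no matched probe. Where a gene had several probes (33 genes), the one with the highest mean over the 4 groups stood for it.

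Potassium channels let potassium ions leave the cell along their gradient, and so set the resting potential, end the action potential and limit how fast a neuron can fire. Voltage-gated pore subunits (Kv, KCNQ and ether-a-go-go families) open on depolarisation, calcium- and sodium-activated channels open as those ions enter during firing, and inward rectifiers and 2-pore-domain channels carry the resting current. Auxiliary subunits bind the pores and change their gating or their delivery to the membrane. Embryonic motor neurons already fire spontaneously and acquire their potassium currents in steps during development.

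The deleted locus, mir-17~92, encodes 6 microRNAs in one transcript. Their mature sequences are shown because their loss is what the knockout label stands for, and the seed (bases 2 to 8, in capitals), the stretch that pairs with target messages, sorts them into 4 groups. The sequences are RefSeq's, from mouse chromosome 14 of build GRCm38.p6, plus strand, written 5′ to 3′. Mature microRNAs were not analysed here.
mmu-miR-17-5p: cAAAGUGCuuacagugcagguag
mmu-miR-18a-5p: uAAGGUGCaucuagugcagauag
mmu-miR-19a-3p: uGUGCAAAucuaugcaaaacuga
mmu-miR-20a-5p: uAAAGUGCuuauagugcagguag
mmu-miR-19b-3p: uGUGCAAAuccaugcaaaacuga
mmu-miR-92a-3p: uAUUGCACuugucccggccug
miR-17-5p and miR-20a-5p share the seed AAAGUGC, miR-19a-3p and miR-19b-3p share GUGCAAA, and miR-18a-5p and miR-92a-3p each stand alone. No match of these seeds to Kcn messages was searched for.

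Values are log2 processed signals minus the 75th percentile of the array, so 0 is the level of that percentile and 1 unit is a doubling. The arrays differed in brightness. The 75th percentile of the signal was 59.9 and 506 on the knockout-labelled GFP-on arrays (replicates 1 and 2), 48.5 and 64.5 on the wild-type-labelled GFP-on arrays, and 550 (knockout-labelled) and 341 (wild-type-labelled) on the GFP-off arrays. On the 3 dim arrays the faintest signal called above background lay between -2.76 and -2.11, against -4.97 to -4.96 on the 3 bright ones. The wild-type-labelled GFP-on arrays stood apart: they correlated with the other 4 arrays at r = 0.711 to 0.895 over 10126 genes, while those 4 correlated with each other at 0.908 to 0.980. With so few arrays, precision is low throughout. Mir17hg, the host transcript of the cluster, had log2 signals of 4.54 and 4.78 in knockout-labelled GFP-on cells and -2.38 (below background) and 2.73 in wild-type-labelled ones. In GFP-off cells it had 4.62 in the knockout-labelled and -1.23 in the wild-type-labelled sample. It was thus higher wherever the label says knockout, and where its probe lies relative to the deletion is not known, so every genotype below is a label, and directions between genotypes hold only as far as the labels do.

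The sort was checked against marker genes, summed as linear signals in multiples of the 75th percentile. The motor neuron list (8 of 9 genes tested, all but Mnx1) summed to 8.14 to 39.8 in GFP-on samples and 3.42 to 5.19 in GFP-off samples, and 4 of the 8 genes were higher in GFP-on cells. Markers of sensory neurons and neural crest summed to 34.2 to 65.1 in GFP-on and 6.72 to 7.60 in GFP-off samples (2 of 5 higher), and those of interneurons to 41.4 to 56.7 in GFP-on and 13.9 to 19.7 in GFP-off samples (1 of 9 higher). Red cell markers summed to 38.0 to 210 in GFP-on and 553 to 563 in GFP-off samples, and 5 of 5 tested were lower in GFP-on cells. Mesenchyme markers summed to 242 to 359 in GFP-on and 509 to 704 in GFP-off samples, with 0 of 4 past the test (limma, 3 at an unadjusted p under 0.05). The GFP-on fraction thus held more signal of several neural cell types than the GFP-off fraction. It also held signal of red cells and mesenchyme, so it was not motor neurons alone. In bulk samples, fewer cells of a type and less RNA per cell cannot be told apart.

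Of the 96 genes, 62 were tested, since their probe rose above background on 2 or more arrays, and 29 of these were above background on all 6. The 34 untested genes included 25 that were above background on no array and 9 that were on 1. Detection differed by family. The Kv1 to Kv4 pore subunits were mostly measurable (15 of 17, all but Kcna2 and Kcna10), as were the calcium-, sodium- or pH-activated channels (7 of 8, all but Kcnn1) and the 2-pore-domain channels (11 of 14, all but Kcnk7, Kcnk12 and Kcnk18). In contrast, 3 of 10 silent Kv subunits, which conduct only when joined to other pore subunits, could be tested, and Kcnf1, Kcng3, Kcng4, Kcns1, Kcns2, Kcnv1 and Kcnv2 could not. Among the inward rectifiers 6 of 15 were tested, while Kcnj1, Kcnj2, Kcnj3, Kcnj5, Kcnj6, Kcnj9, Kcnj11, Kcnj15 and Kcnj16 were not, a group that holds the G-protein-gated subunits. Other untested genes included Kcnq3, a subunit of the M-current, the ether-a-go-go members Kcnh1, Kcnh6 and Kcnh7, the auxiliary subunits Kcnab2, Kcne1, Kcne2, Kcnip2, Kcnmb1 and Kcnmb3, and the antisense RNA Kcnmb4os1.

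The number of Kcn genes above background was lower on the 3 dim arrays. It was 45 and 63 on the knockout-labelled GFP-on arrays, 37 and 38 on the wild-type-labelled GFP-on arrays, and 63 and 62 on the GFP-off arrays. For the 34 untested genes the median log2 signal was -4.77 and -6.69 in knockout-labelled GFP-on cells, -4.09 and -4.27 in wild-type-labelled ones, and -6.68 and -6.27 in GFP-off cells. Of these 34, 32 had a higher mean in GFP-on than in GFP-off cells. These signals lie at or near the background of each array, so no difference between cells is read from them. For a tested gene, a value from an array on which it was below background is only an upper bound, and such values of the genes that passed a test are named below.

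GFP-on cells were first compared with GFP-off cells, which asks which channel genes differ between the sorted fractions. The genes higher in GFP-on cells included Kcnma1, the pore of the large-conductance calcium-activated (BK) channel, and Kcnj12, an inward rectifier. Kcnk6, a 2-pore-domain channel, was lower. In the limma fit over all 14918 genes (genotype label and cell type as terms, Benjamini-Hochberg adjusted p under 0.05), 4 of the 62 tested Kcn genes were higher, 1 was lower and 57 did not pass. Over all genes 2.27% were called, 1.51% higher and 0.757% lower, against 8.06%, 6.45% and 1.61% of the tested Kcn genes. At an unadjusted p under 0.05 there were 24 Kcn genes (38.7%, against 22.1% of all genes). The median difference was 0.36 for the Kcn genes and -0.21 for all genes.

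Kcnma1 had log2 signals of 1.16 and 0.70 in knockout-labelled and 1.16 and 0.77 in wild-type-labelled GFP-on cells, against -1.59 and -1.14 in GFP-off cells. The GFP-on values of both genotype labels spanned the same range, and the difference was 2.31 ± 0.41 (SE, 4 arrays against 2, adjusted p = 0.0333, limma). A second Kcnma1 probe, above background on all 6 arrays, gave 2.73 (adjusted p = 0.0360 in the fit over all named probes).

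Kcnj12 had 0.57 and 0.66 in knockout-labelled and -0.67 and -1.20 in wild-type-labelled GFP-on cells, against -1.97 and -2.63 in GFP-off cells, a difference of 2.14 ± 0.43 (adjusted p = 0.0453, limma). The groups did not overlap, and within the GFP-on cells the knockout-labelled arrays were the higher ones. Kcnk6 ran the other way, with -2.05 and -1.44 in knockout-labelled GFP-on cells and -4.15 and -4.32, both below background, in wild-type-labelled GFP-on cells, against 0.42 and -0.13 in GFP-off cells. All 4 GFP-on values were lower than both GFP-off values, with a fitted difference of -3.13 ± 0.52 (adjusted p = 0.0285, limma). Part of that mean rests on signals below background, so the size is approximate. Within the wild-type-labelled samples the gene was at least 4.21-fold lower, an approximate bound that puts GFP-on cells at the lowest signal called above background.

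**Figure D1:**
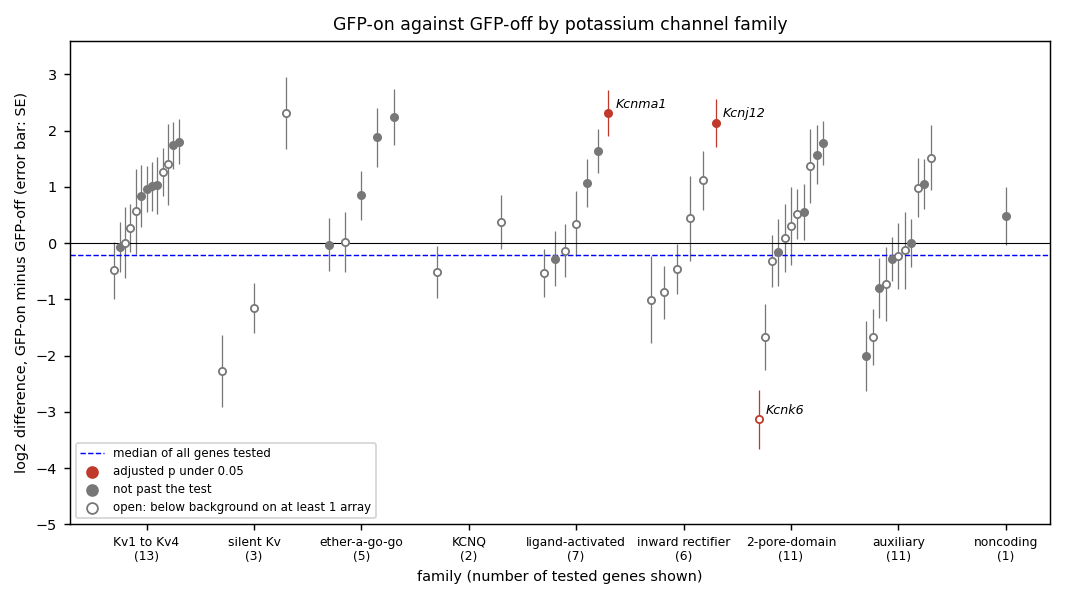
Fitted log2 difference of GFP-on minus GFP-off cells (vertical axis, error bars SE) for 59 of the tested Kcn genes, one point per gene, grouped by family with the number shown. Kcnma1 and Kcnj12 are past the test on the upper side, Kcnk6 is the lowest point at -3.13, and the dashed line marks the median of all genes, -0.21.

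The 29 Kcn genes above background on all 6 arrays were measured without a bound on any array. When the fit and the adjustment were repeated over the 10188 genes with such a probe, 10 of these 29 (34.5%) were higher in GFP-on cells, against 4.05% of all such genes. None was lower (1 at an unadjusted p under 0.05), against 1.45% of all such genes (limma). This requirement leaves out genes whose GFP-on signal was too low to detect, among them Kcnk6, the one lower gene above. Most GFP-on arrays were dim and both GFP-off arrays were bright, so among faint genes it favours those higher in GFP-on cells. Its part in these shares was not tested. The median difference was 1.01 for the Kcn genes and -0.12 for all. The added genes were Kcnh8 and Kcnh4, 2 ether-a-go-go channels of the Elk group, Kcnb2 (a Kv2 delayed rectifier), Kcnk10 (the 2-pore-domain channel TREK-2), Kcnc1 (Kv3.1) and Kcnt1, a sodium-activated channel. Kcnh8 had -0.76 and -1.34 in knockout-labelled and -1.45 and -0.58 in wild-type-labelled GFP-on cells, against -3.98 and -2.58 in GFP-off cells (difference 2.24 ± 0.46, adjusted p = 0.0185, limma over these genes). Kcnc1 had 1.07 and 0.85 in knockout-labelled and 0.48 and 1.01 in wild-type-labelled GFP-on cells, against -1.01 and -0.76 in GFP-off cells (1.74 ± 0.39, adjusted p = 0.0262). For both genes the GFP-off values were the lower ones without overlap, and the 2 further Kcnc1 probes gave 1.18 and 2.01.

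Kcnk10 had 1.71 and 1.66 in knockout-labelled and 2.24 and 2.27 in wild-type-labelled GFP-on cells, against -0.13 and 0.50 in GFP-off cells. Kcnb2 had -1.38 and -1.47 in knockout-labelled and -0.49 and -0.17 in wild-type-labelled GFP-on cells, against -3.16 and -2.21 in GFP-off cells. Kcnt1 had -1.34 and -1.55 in knockout-labelled and -0.82 and -0.68 in wild-type-labelled GFP-on cells, against -3.02 and -2.45 in GFP-off cells. In all 3 genes the wild-type-labelled GFP-on arrays were the highest, the knockout-labelled GFP-on arrays came next and the GFP-off arrays were the lowest. Kcnh4 had 0.94 and -0.02 in knockout-labelled and 2.23 and 2.45 in wild-type-labelled GFP-on cells, against -0.59 and -0.37 in GFP-off cells, so that its difference between cell types was carried mainly by the wild-type-labelled arrays.

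**Figure D2:**
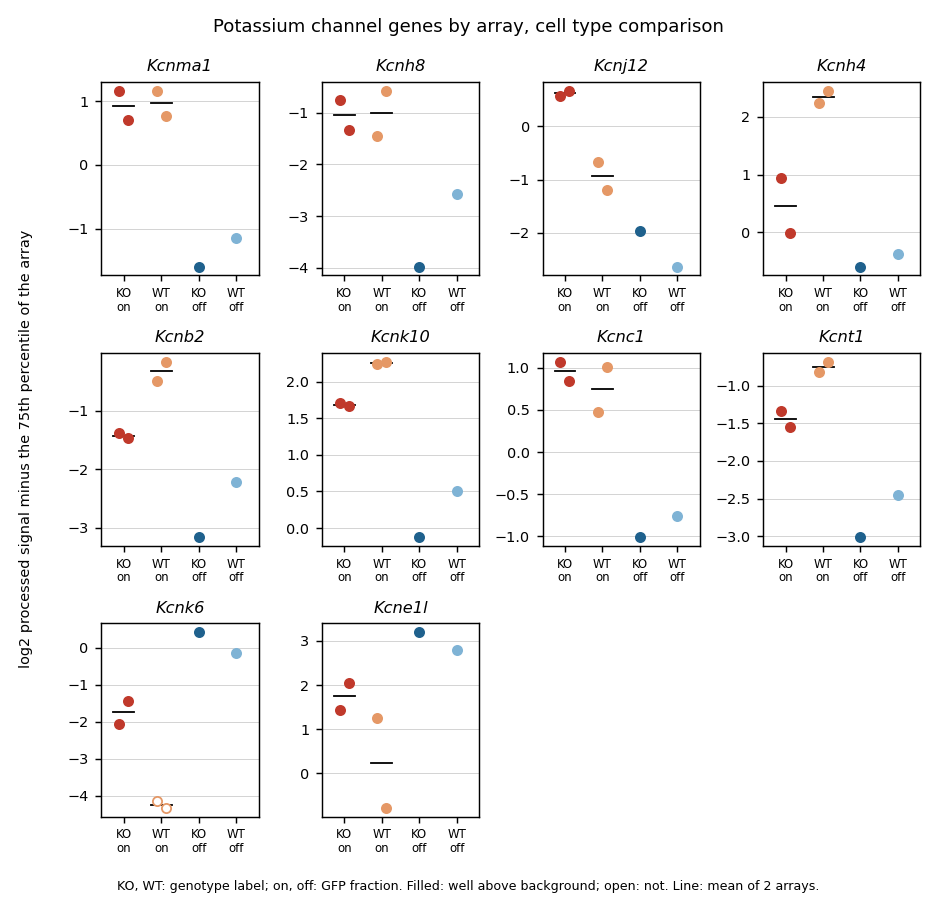
Log2 processed signal minus the array's 75th percentile (vertical axis, its own scale per gene) for 10 Kcn genes in each sample, by genotype label and GFP fraction. Points are arrays, open where the gene was not above background, and the line is the mean of 2 arrays. In the first 8 genes all GFP-on points lie above the GFP-off points, and in Kcnk6 and Kcne1l they lie below.

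By family, the Kv1 to Kv4 pores had a median difference of 0.96. For Kcnc4 the order of the fractions is not established, since its 2 wild-type-labelled GFP-on values are only upper bounds. With Kcnc4 counted, all GFP-on arrays lay above both GFP-off arrays in 6 of the 15 (against 10.8% of all genes tested). Kcna6, which had 3.94 and 3.55 in knockout-labelled and 3.46 and 3.26 in wild-type-labelled GFP-on cells against 2.57 and 2.60 in GFP-off cells, was one of these (difference 0.96), as was the A-type channel gene Kcnd3 (1.01). The A-type channel gene Kcna4 gave -0.06, with 2.61 and 1.55 in knockout-labelled and 2.29 and 2.39 in wild-type-labelled GFP-on cells, against 2.17 and 2.38 in GFP-off cells. It did not pass the test. Kcna1, a Kv1 pore known for axonal currents, gave 1.40, its wild-type-labelled GFP-on values being -0.86 and -3.24 (the second below background).

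In the ether-a-go-go family the median was 0.86 and 0 of 5 passed in the limma fit over all genes (2 at an unadjusted p under 0.05), with Kcnh2 (the ERG1 channel) at 0.86 and Kcnh3 at -0.03. The ligand-activated family had a median of 0.35 with 1 of 7 higher. The small-conductance calcium-activated channels in it did not pass (Kcnn2 -0.28, Kcnn3 -0.13, Kcnn4, below background on all 4 GFP-on arrays), nor did Kcnt2 (0.35) or the pH-activated Kcnu1 (1.07). Among the inward rectifiers the median was -0.01 and 1 of 6 was higher. Kcnj10, the glial channel Kir4.1, had -0.55 and -1.53 in knockout-labelled GFP-on cells and -2.87 and -2.27 (both below background) in wild-type-labelled ones, against -2.93 and -2.92 in GFP-off cells, a difference of 1.12 that did not pass.

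The auxiliary subunits had a median of -0.23 and 0 of 11 passed (limma, 4 at an unadjusted p under 0.05). Kcne1l, a single-span subunit of the KCNE family, had 1.44 and 2.05 in knockout-labelled and 1.26 and -0.78 in wild-type-labelled GFP-on cells, against 3.20 and 2.79 in GFP-off cells, a difference of -2.01. Kcne4, below background on the first array of each GFP-on group, gave -1.67. All GFP-on values of both genes were lower than both GFP-off values. The BK subunits parted, with 1.52 for Kcnmb2 and -0.80 for Kcnmb4, neither past the test. Of the 3 silent Kv subunits tested, 0 passed (limma, 3 at an unadjusted p under 0.05), and none was above background on all arrays. Kcng2 was below background on both GFP-off arrays and on wild-type-labelled GFP-on replicate 1 (means -2.22 in GFP-on and -4.53 in GFP-off cells, adjusted p = 0.0935), so no fold is given. Kcng1 gave -1.15 and Kcns3 -2.27, each below background on 3 GFP-on arrays.

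Across the 62 tested genes, all 4 GFP-on arrays lay above both GFP-off arrays in 19 (30.6%, against 10.8% of all genes tested) and below both in 9 (14.5%, against 16.9%). Both counts include values below background. The 19 included Kcna6, Kcnb2, Kcnc1, Kcnd3, Kcnh2, Kcnh4, Kcnh8, Kcnj12, Kcnk10, Kcnk15, Kcnma1, Kcnrg, Kcnt1 and Kcnu1, all above background on all 6 arrays. They also included Kcnc4 and Kcnj10 (below background on both wild-type-labelled GFP-on arrays) and Kcng2, for which the order is not established. The 9 included Kcne1l, Kcne4, Kcnk1, Kcnk6 and Kcns3. For Kcng1, Kcnj4 and Kcnn4, also among the 9, the order is not established either, since a GFP-on array on which the gene was below background could not have shown a signal as low as its GFP-off values. Among the 29 genes above background on all arrays, 16 lay above (55.2%, against 13.2%) and 2 below (6.90%, against 15.2%). As said above, that requirement favours faint genes that are higher in GFP-on cells. The summed markers of motor neurons, of sensory neurons and neural crest and of interneurons were also higher in every GFP-on sample than in both GFP-off samples, as given above. Their part in these differences was not tested.

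Each genotype label gives the cell type difference once more, although both rest on single GFP-off arrays. In 12 of 62 genes (19.4%, against 5.6% of all genes) the GFP-on mean was over 1 log2 unit higher within both labels, and in 5 (8.06%, against 5.89%) it was over 1 unit lower within both. Kcnma1 gave 2.52 in the knockout-labelled and 2.11 in the wild-type-labelled samples. Kcnk10 gave 1.81 in the knockout-labelled and 1.75 in the wild-type-labelled samples. Kcnh4 was less even, with 1.06 in the knockout-labelled and 2.70 in the wild-type-labelled samples, as was Kcnh8, with 2.93 in the knockout-labelled and 1.56 in the wild-type-labelled samples. The fitted sign was shared in 40 genes and opposite in 22, counts that include values below background and are given only as a description. Kcnk16 gave -0.14 in the knockout-labelled samples, where GFP-on replicate 1 was below background, and 2.89 in the wild-type-labelled samples.

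**Figure D3:**
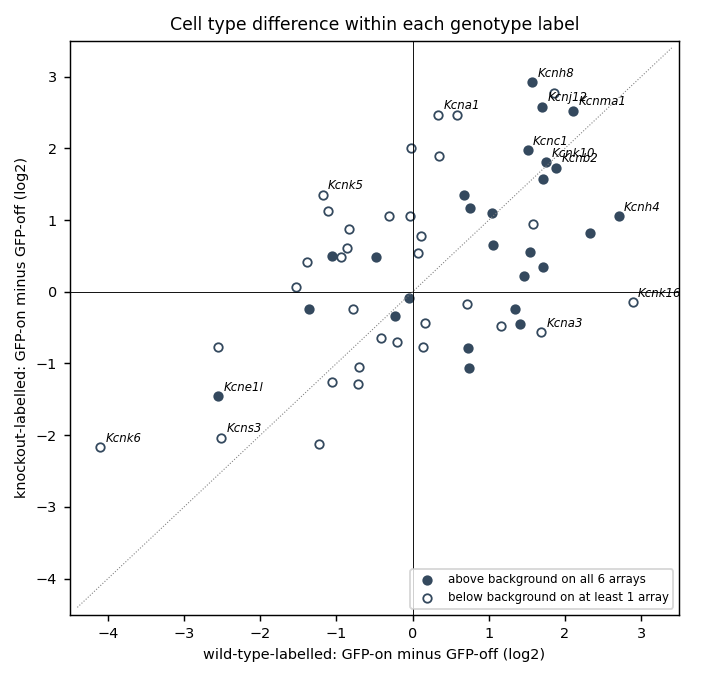
Log2 difference of GFP-on minus GFP-off cells within the knockout-labelled samples (vertical axis) against that within the wild-type-labelled samples (horizontal axis), one point for each of 59 tested Kcn genes, filled where above background on all 6 arrays. The dotted line marks equal differences. Kcnma1 and Kcnk10 lie near it in the upper right, and Kcnk16 and Kcna3 lie to the right with values near or below 0 on the vertical axis.

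The calls of single genes depended on which arrays entered. Without both wild-type-labelled GFP-on arrays, 12 Kcn genes passed (19.4%, against 7.19% of all genes), and with the 4 arrays of slide row 2 alone 20 passed (32.3%, against 27.4% of all genes). The genes called in both of these fits, which share the GFP-off arrays, numbered 5 and included Kcnma1, Kcnc1, Kcnk10 and Kcnk6. No Kcn gene passed without knockout-labelled GFP-on replicate 1, without wild-type-labelled GFP-on replicate 1, or without the wild-type-labelled GFP-off array (limma, with 18, 20 and 16 at an unadjusted p under 0.05), against 0.168%, 0% and 0% of all genes. In these and all other settings run, the sign of Kcnma1, Kcnj12 and Kcnk6 was kept. Of the 14 Kcn genes with more than 1 probe above the filter, 12 had one sign over their probes.

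The stretch before the start of a gene can be set beside these values. Of the 96 genes, 70 have an entry in the RefSeq table of gene starts (build GRCm38.p6), with 95 windows of 250 bases. Among the 10 genes higher in GFP-on cells above, 6 have an entry, with 7 windows. The letters GGGCGG (the GC box bound by Sp family factors, both strands, matches may overlap) stand in 44.2% of the Kcn windows, in 5 of these 7 windows, and in 32.7% of the 32851 windows of all genes. TATAAA stands in 3.16% of the Kcn windows and 12.4% of all windows, and the homeodomain core TAATTA in 0% and 4.84%. The E-box CANNTG stands in 67.4% and 66.2%. A pair of windows is shown, because these genes passed the same test with start regions that differ. Capitals mark GGGCGG or its reverse complement CCGCCC.
Kcnma1, chr14:24004206-24004455, minus strand: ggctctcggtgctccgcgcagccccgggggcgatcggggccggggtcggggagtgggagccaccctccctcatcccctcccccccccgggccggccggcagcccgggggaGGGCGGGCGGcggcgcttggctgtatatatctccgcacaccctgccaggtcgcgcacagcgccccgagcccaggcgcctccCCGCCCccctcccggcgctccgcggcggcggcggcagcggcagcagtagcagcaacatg
Kcnj12, chr11:61065554-61065803, plus strand: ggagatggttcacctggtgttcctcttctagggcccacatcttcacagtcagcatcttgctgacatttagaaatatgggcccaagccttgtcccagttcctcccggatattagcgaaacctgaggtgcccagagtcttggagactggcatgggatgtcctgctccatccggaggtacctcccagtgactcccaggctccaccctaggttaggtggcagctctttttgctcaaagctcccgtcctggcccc
The Kcnma1 window holds 3 matches, of which 2 overlap, and 31 CG pairs. The Kcnj12 window holds 0 matches and 4 CG pairs. A match of letters is a description and no binding site, and binding was not measured.

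Knockout-labelled GFP-on cells were then compared with wild-type-labelled GFP-on cells, which asks which channel genes differ with the genotype label in that fraction. Higher in the knockout-labelled cells were Kcnd2, the Kv4.2 pore of A-type current, and Kcnip1 and Kcnip4, calcium-binding KChIP subunits that attach to Kv4 pores. The auxiliary subunits Kcnmb2 (of BK channels) and Kcnab1 (of Kv1 channels), the calcium-activated Kcnn2, the Kv3 pore Kcnc2, the inward rectifier Kcnj12 and the 2-pore-domain genes Kcnk1, Kcnk5 and Kcnk6 were higher as well. Lower were the noncoding RNA Kcnq1ot1, the Kv1 pores Kcna3 and Kcna7, the ether-a-go-go channel Kcnh4 and the 2-pore-domain gene Kcnk16. In the limma fit (4 group means, adjusted over 14918 genes) 11 Kcn genes were higher, 5 were lower and 46 did not pass. Over all genes 23% were called (15.9% higher, 7.14% lower), against 25.8% of the Kcn genes (17.7% and 8.06%), so the Kcn genes were called about as often as any gene.

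Of the higher genes, 3 were above background on all 6 arrays. Kcnn2, the small-conductance SK2 channel, had 0.05 and 0.26 in knockout-labelled GFP-on cells, against -1.54 and -2.06 in wild-type-labelled ones, which came to 1.96 ± 0.48 in the limma fit (SE, 2 arrays against 2, adjusted p = 0.0238). Its GFP-off values, -0.35 and -0.75 in the knockout-labelled and wild-type-labelled samples, lay between the 2 GFP-on groups. Kcnab1 had -0.24 and 0.07 in knockout-labelled against -1.92 and -1.72 in wild-type-labelled cells (1.73 ± 0.47, adjusted p = 0.0324), and Kcnj12 differed by 1.55 ± 0.48 (adjusted p = 0.0475) with the values given above, a call that passed in 10 of 19 other settings. For all 3 genes both knockout-labelled values exceeded both wild-type-labelled values.

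In Kcnd2 and Kcnmb2, wild-type-labelled replicate 2 was below background, so the sizes are approximate. Kcnd2 had 1.12 and 1.19 in knockout-labelled cells against -0.48 and -2.08 (the second below background) in wild-type-labelled cells, a difference of 2.44 ± 0.60 (adjusted p = 0.0240, limma). Kcnmb2 had 0.19 and 0.57 in knockout-labelled cells against -1.02 and -2.31 (the second below background) in wild-type-labelled cells, a difference of 2.05 ± 0.56 (adjusted p = 0.0340, limma). A second Kcnmb2 probe gave 0.26, with -1.66 and -1.33 in knockout-labelled cells. Its wild-type-labelled values were -0.06, above both of these, and -3.45, below background. The pores to which these subunits belong were also measured. Kcnma1 gave -0.04 and the Kv4 pores Kcnd3 and Kcnd1 gave 0.28 and -1.55, none past this test. Kcnip3, a further KChIP gene, gave -0.71 and did not pass.

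For Kcnip1, Kcnip4, Kcnk1, Kcnk5, Kcnk6 and Kcnc2, both wild-type-labelled arrays were below background. A fold, where given, is an approximate lower bound on the ratio of the group means. It puts the dim group at the lowest signal called above background, or at the probe's own signal where that is higher. Some probes over that signal were not called, such as a Kcne1l probe at -1.94 on wild-type-labelled replicate 2, where the lowest called signal was -2.30. Kcnip4 had -0.99 and -0.80 in knockout-labelled cells, against -2.60 and -4.41 in wild-type-labelled cells, and was at least 2.48-fold higher (adjusted p = 0.0230, limma). Kcnip1 had -1.67 and -1.59 in knockout-labelled cells against -3.88 and -3.60 in wild-type-labelled cells, with -3.63 and -3.71 in GFP-off cells, and was at least 1.49-fold higher (adjusted p = 0.0174). For both KChIP genes the knockout-labelled GFP-on arrays were the highest of the 6. Kcnk1 (means -1.34 in knockout-labelled and -3.45 in wild-type-labelled cells) was at least 1.81-fold higher (adjusted p = 0.0356). Kcnk6 (means -1.75 in knockout-labelled and -4.23 in wild-type-labelled cells) was at least 1.37-fold higher (adjusted p = 0.0122). Kcnk5 (means -2.07 in knockout-labelled and -4.54 in wild-type-labelled cells, adjusted p = 0.0137, limma) is given no fold. Signals near its knockout-labelled mean were not called above background on the wild-type-labelled arrays, such as -2.08 for a Kcnc1 probe on replicate 1. Kcnc2 (means -2.57 in knockout-labelled and -4.42 in wild-type-labelled cells, adjusted p = 0.0282, limma) was below background on knockout-labelled replicate 1 too. It has no fold, since its knockout-labelled mean did not reach the lowest signals called above background on the wild-type-labelled arrays. With normexp background correction Kcnk1, Kcnk5, Kcnk6, Kcnc2 and Kcnip1 gave differences below 0, and no Kcn gene passed between genotype labels (limma, 9 at an unadjusted p under 0.05), against 9.49% of all genes.

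Among the lower genes, Kcnq1ot1, Kcna7 and Kcnh4 were above background on all 6 arrays. Kcnh4 had 0.94 and -0.02 in knockout-labelled cells against 2.23 and 2.45 in wild-type-labelled cells (-1.88 ± 0.52, adjusted p = 0.0343, limma). Kcna7 had 0.78 and -0.70 in knockout-labelled cells against 1.72 and 2.23 in wild-type-labelled cells (-1.94 ± 0.60, adjusted p = 0.0471), and its second probe, above background on 3 arrays, gave -0.66. In both genes the wild-type-labelled GFP-on arrays were the highest of the 6. Kcnk16 was also highest there, with -3.81 and -3.20 (the first below background) in knockout-labelled GFP-on cells, -1.10 and -0.56 in wild-type-labelled GFP-on cells and -3.36 and -3.72 in GFP-off cells (-2.67 ± 0.50, adjusted p = 0.0112). Kcna3 had -5.05 and -4.87 (the first below background) in knockout-labelled cells against -3.52 and -0.96 (the first below background) in wild-type-labelled cells, so that its difference of -2.72 ± 0.77 (adjusted p = 0.0368) rested on wild-type-labelled replicate 2.

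**Figure D4:**
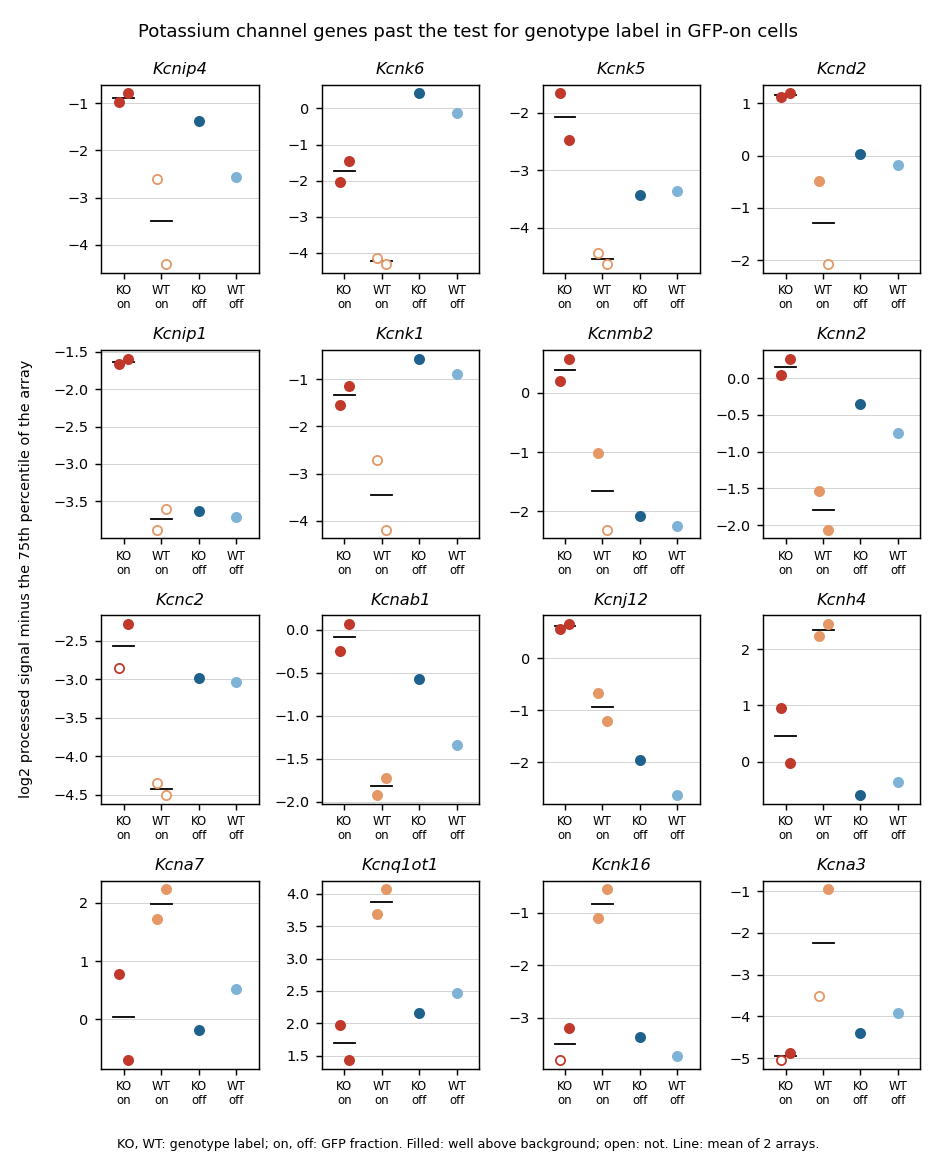
Log2 processed signal minus the array's 75th percentile (vertical axis, its own scale per gene) for the 16 Kcn genes past the test between genotype labels in GFP-on cells, by genotype label and GFP fraction. Points are arrays, open where the gene was not above background, and the line is the mean of 2 arrays. The knockout-labelled GFP-on points are above the wild-type-labelled ones in the first 11 genes and below them in the last 5.

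The noncoding RNA Kcnq1ot1, an imprinted transcript antisense to Kcnq1, was measured by several probes. It had 1.97 and 1.43 in knockout-labelled GFP-on cells, against 3.68 and 4.07 in wild-type-labelled GFP-on cells, with 2.15 and 2.46 in GFP-off cells, a difference of -2.18 ± 0.49 (adjusted p = 0.0182, limma). The second probe of its accession gave -1.74 (adjusted p = 0.0338 in the fit over all named probes). The files name 5 further probes KCNQ1ot1, which were left out of the test because their identifiers matched no accession. Their differences ran from -2.86 to -1.04, with both knockout-labelled values below both wild-type-labelled values in all 5, values below background included. The probe at -1.04 was above background on all 6 arrays. The probes at -2.46 and -2.86 were above background on 5, and their values on knockout-labelled replicate 1 (-4.65 and -4.76) were below background. The probes at -2.40 and -2.12, above background on 0 and 2 arrays, were below background on all 4 GFP-on arrays, so their order is not established. Kcnq1 itself, which lies on the other strand, was below background on 3 of the 4 GFP-on arrays, so no difference is read from it.

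**Figure D5:**
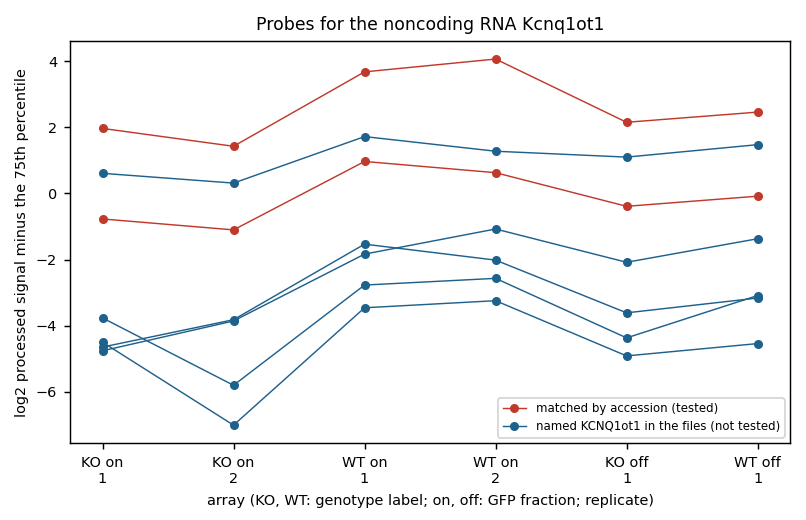
Log2 processed signal minus the array's 75th percentile (vertical axis) of 7 probes for Kcnq1ot1 on each of the 6 arrays (horizontal axis), with each line joining the values of one probe. The 2 probes matched by accession were tested and gave -2.18 and -1.74. On all 7 probes both knockout-labelled GFP-on arrays lie below both wild-type-labelled ones, values below background included.

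By family, the auxiliary subunits had the highest median genotype difference (1.39, against 0.35 over all genes). By limma 4 of 11 were higher, against 15.9% of all genes, and 0 lower (0 lower at an unadjusted p under 0.05). That median is the value of Kcne3, below background on knockout-labelled replicate 1 and on both wild-type-labelled arrays. Of the 4 higher genes, Kcnip1 and Kcnip4 were below background on both wild-type-labelled arrays and Kcnmb2 on replicate 2, so the family's size is approximate. The Kv1 to Kv4 pores had 2 of 15 higher and 2 lower (median 0.04), and the 2-pore-domain channels 3 of 11 higher and 1 lower (median -0.41). The median over the 62 tested Kcn genes was -0.04. Both knockout-labelled arrays lay above both wild-type-labelled arrays in 20 Kcn genes (32.3%, against 41.5% of all genes) and below both in 21 (33.9%, against 25.8%), values below background included. A requirement of signal above background on all 6 arrays leaves out genes too faint for the dim arrays, which include both wild-type-labelled GFP-on arrays. It kept 3 of the 11 higher calls and 3 of the 5 lower calls. The balance of directions in the counts that follow is therefore not read as a trait of the Kcn genes. Among the 29 genes above background on all arrays, refitted over 10188 genes, 3 were higher (10.3%, against 15.2% of all such genes) and 6 lower (20.7%, against 8.87%), with a median of -0.53 against 0.28. In 7 of these 29 both knockout-labelled arrays were above both wild-type-labelled ones (24.1%, against 39.1%), and in 15 both were below (51.7%, against 27.2%). The 3 lower genes added there were Kcnd1 (0.93 and -0.20 in knockout-labelled against 2.01 and 1.81 in wild-type-labelled GFP-on cells), Kcnh3 (-1.55 and -1.77 in knockout-labelled against -0.36 and -0.02 in wild-type-labelled cells) and Kcnk4, the mechanosensitive channel TRAAK (-0.34 and -0.84 in knockout-labelled against 0.61 and 1.25 in wild-type-labelled cells). In all 3 the wild-type-labelled pair was the higher, without overlap.

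Several measures moved with the genotype label. The 2 knockout-labelled GFP-on arrays shared slide row 1, and all other arrays were in row 2. In GFP-on cells, genotype label and slide row therefore cannot be told apart. Summed motor neuron markers were 33.5 and 39.8 in knockout-labelled and 12.0 and 8.14 in wild-type-labelled GFP-on cells, with 4 of 8 higher (Isl1, Isl2, Slc5a7 and Prph). Lhx3, Lhx4, Chat and Slc18a3, the 4 higher in GFP-on than in GFP-off cells, gave 0.37, -0.35, -0.34 and 0.47 and did not pass. Markers of progenitors and glia summed to 50.1 and 58.3 in knockout-labelled and 31.2 and 18.3 in wild-type-labelled cells (3 of 6 higher). Fabp7 was the largest, at 5.21 and 5.36 in knockout-labelled and 2.66 and 1.95 in wild-type-labelled cells. Nes (-0.98) and Pax6 (-0.63) differed the other way without passing. Markers of microglia summed to 13.3 and 15.4 in knockout-labelled and 4.71 and 10.1 in wild-type-labelled cells (3 of 4 higher), and those of red cells to 210 and 70.0 in knockout-labelled and 38.0 and 43.8 in wild-type-labelled cells (1 of 5 higher). Of the 6 markers of endothelium and pericytes, Cdh5, Cldn5 and Rgs5 were higher and Pecam1 was lower, with a median difference of 1.79. Their sum, 16.1 and 22.6 in knockout-labelled and 21.0 and 116 in wild-type-labelled cells, ran the other way because of Kdr, at 2.58 and 3.04 in knockout-labelled and 3.87 and 6.83 in wild-type-labelled cells. The part of these cell types in the Kcn differences was not tested. With the array median subtracted in place of the 75th percentile, 20 Kcn genes were higher and 2 lower, in place of 11 and 5. Together these were 35.5% of the Kcn genes, against 34.8% of all genes, whose median difference was 0.98 in that scaling and 0.35 in the one used throughout. With quantile normalization 6 were higher and 2 lower (12.9%, against 11.5% of all genes). Without wild-type-labelled replicate 1, 30 Kcn genes passed (48.4%, against 47% of all genes), and without knockout-labelled replicate 2 (the bright array) 3 did (4.84%, against 6.17%). In these settings the share of Kcn genes called lay near that of all genes.

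In GFP-off cells each genotype label had 1 array, so the values carry no test. The knockout-labelled minus wild-type-labelled differences of the 62 genes ran from -1.50 (Kcnk9, -5.58, below background, in the knockout-labelled against -4.08 in the wild-type-labelled sample) to 1.19 (Kcnip4, -1.37 in the knockout-labelled against -2.56 in the wild-type-labelled sample), and 57 lay within 1 log2 unit. Over 1 unit higher were 2 genes (3.23%, against 3.22% of all genes), Kcnip4 and Kcnj13, and over 1 unit lower were 3 (4.84%, against 3.3%), among them Kcnk9 and Kcnh8. Of the 16 genes called in GFP-on cells, 14 had the same sign in GFP-off cells (87.5%, against 87.4% of all genes called), at 0.06 to 1.19 in size.

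Whether the cell type difference depends on the genotype label was tested as an interaction. No Kcn gene passed (0 of 62), nor did any of the 14918 genes (limma), and 4 Kcn genes (6.45%) had an unadjusted p under 0.05, against 9.64% of all genes. These were Kcnk16 (difference of differences -3.03 ± 0.87, adjusted p = 0.393), Kcnk5 (2.54 ± 0.87), Kcnip1 (2.02 ± 0.81) and Kcnk6 (1.94 ± 0.84), the last 3 below background on both wild-type-labelled GFP-on arrays. The genotype differences above are therefore not shown to be particular to motor neurons. Without wild-type-labelled GFP-on replicate 1, 7 Kcn genes passed (11.3%, against 9.87% of all genes), namely Kcna1, Kcna3, Kcnd2, Kcnk1, Kcnk5, Kcnk16 and Kcnmb2. On the one wild-type-labelled GFP-on array left there, all of these but Kcna3 and Kcnk16 were below background.

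Other genes of potassium handling (HCN channels, sodium pumps, potassium-chloride cotransporters and proteins that bind or cluster Kv channels) were set beside them. Of 31 such genes 27 were tested, and 0 passed between GFP-on and GFP-off cells (limma, against 2.27% of all genes), with a median of 0.18. At an unadjusted p under 0.05 there were 11 of the 27, against 22.1% of all genes. Between genotype labels in GFP-on cells 9 were higher and 1 was lower (15.9% and 7.14% of all genes, as above). Atp1b3, a sodium pump subunit, had 2.61 and 3.16 in knockout-labelled against 0.29 and -1.22 in wild-type-labelled GFP-on cells (difference 3.35, adjusted p = 0.00982, limma). Hcn2, a hyperpolarisation-activated cation channel, was the lower one, with 5.85 and 4.48 in knockout-labelled against 7.17 and 8.14 in wild-type-labelled GFP-on cells (-2.49, adjusted p = 0.0239). Its relative Hcn3 had 0.57 and 0.30 in knockout-labelled against -2.83 and -4.12 in wild-type-labelled GFP-on cells, where both wild-type-labelled values were below background. Slc12a7, a potassium-chloride cotransporter, had 1.44 and 1.49 in knockout-labelled against -1.92 and -2.50 in wild-type-labelled GFP-on cells, both wild-type-labelled values below background.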

How the data were processed

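Cy3-labelled RNA of 6 samples was hybridised to one-colour arrays, per the labels. The deposited scanner files give an intensity for each spot (background-subtracted processed signal), with flags coded as present or absent, which are a measure of another kind. Agilent Feature Extraction produced them, in version 10.5.1.1 per the file headers and 9.1 per the submitters' processing notes. The authors' deposited table is on the log2 scale and equals log2 processed signal minus the array's 75th percentile, within 0.01 for at least 99.993% of probes, with no centring of genes.

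The same scaling was used here, over the unflagged spots of each probe. A probe was above background on an array where at least 50% of its unflagged spots were, and was tested if this held on at least 2 of 6 arrays. Probes were named by RefSeq accession (GRCm38.p6), which matched 26300 of 55681 probes. Because the headers name another build (mm9), coordinates are given only for RefSeq's own sequences. No spot was saturated.

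The tests were limma 3.58.1 (R 4.3.3; lmFit, eBayes) on 14918 genes with Benjamini-Hochberg adjustment. Cell types were compared in an additive model with genotype label (3 residual degrees of freedom), and genotype labels and the interaction in a model of 4 group means (2 residual degrees of freedom, from the GFP-on arrays, with the single GFP-off arrays assumed to vary alike). An exact permutation test of 2 arrays against 2 cannot give a p below 0.333. The steps were tested on simulated data. Alternatives covered normalization, background, filter, probe choice, blocks and left-out arrays.

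The members, families and gene lists were chosen with earlier results of these data known. Named genes were all Kcn genes past a test, the extremes and leading members of each family, and a set list. Kcnh8, Kcnk10 and the other genes of the refit, the promoter pair and the second probes were chosen after their values were seen. Same-numbered GFP-on arrays deviated from their group means with a correlation of -0.28, and the main tests used no block. This value cannot decide whether the replicate numbers pair the samples, since the knockout-labelled replicates also differed in brightness. Some genes are counted in the totals but are not reported here, and the figures leave them out.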

Additional observations from a re-analysis of the deposited data

How the results depend on the processing

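The number of arrays and, on the 3 dim ones, signal over background limit these results. Kcn genes past the test were 5 between GFP-on and GFP-off cells, 16 between genotype labels in GFP-on cells and 0 for the interaction. The share of all genes called is given in brackets after each count that follows. Between cell types the count was 0 with quantile normalization (0%) and 0 with no filter on dim probes (0%, with 42 Kcn genes at an unadjusted p under 0.05). It was 2 with the array median subtracted (1.9%), 3 with all probes tested (1.02%) and 10 with genes above background on all 6 arrays (5.51%). It was 12 without both wild-type-labelled GFP-on arrays (7.19%) and 20 in slide row 2 alone (27.4%). Between genotype labels it was 8 with quantile normalization (11.5%), 0 with normexp background correction (9.49%) and 0 with no filter (0%, with 28 Kcn genes at an unadjusted p under 0.05). It was 9 with genes above background on all 6 arrays (24%) and 0 in the additive model (0%). With normexp the genotype differences turned for Kcnc2 (-0.34), Kcnip1 (-0.13), Kcnk1 (-0.0602), Kcnk5 (-0.30) and Kcnk6 (-0.0635). Leaving out 1 array at a time gave 0 to 9 Kcn genes between cell types, 3 to 30 between genotype labels and 0 to 7 for the interaction. The cause of these shifts was not tested. With the replicate number as a block 3 Kcn genes passed between cell types (2.58% of all genes) and 17 between genotype labels (24.2%). With the numbers crossed 27 passed between genotype labels (34.5%). The all-probe setting, the dim-array setting and the crossed numbers were chosen after seeing the data. Limiting the test to accession-matched genes, planned as an alternative, is the setting used throughout.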

Other observations

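The wild-type-labelled GFP-on replicates differed from each other by over 2 log2 units in 7 tested Kcn genes, and the knockout-labelled ones in 0, a comparison made after the values were seen. The 7 were Kcna1, Kcna3, Kcnab3, Kcne1l, Kcnj8, Kcnj13 and Kcnk3. The median gap over the 62 genes was 0.48 in knockout-labelled and 0.53 in wild-type-labelled cells. Kcnj8, an inward rectifier known from pericytes, had -1.61 and -1.38 in knockout-labelled GFP-on cells, -1.36 and -4.46 (the second below background) in wild-type-labelled ones, and -2.28 and -3.02 in knockout-labelled and wild-type-labelled GFP-off cells. The pericyte markers Rgs5 and Pdgfrb were also lowest in wild-type-labelled replicate 2, with -4.45 (below background) and 0.87, and whether they bear on Kcnj8 was not tested. Kcnj13, another inward rectifier, had -2.75 (below background) and -1.86 in knockout-labelled and -1.23 and -4.31 (below background) in wild-type-labelled GFP-on cells, against -1.02 and -2.05 in GFP-off cells. Kcnk3, a 2-pore-domain channel gene, was the reverse case, with -4.29 (below background) in wild-type-labelled replicate 1 and -1.52 in replicate 2.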
